A study of Mus musculus with 4 samples.

Results

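Fracture callus held 1834 chondrocytes that were neither hypertrophic nor cycling, of 14451 callus cells and 23216 cells of the whole series past the filters. A cell was counted when it had at least 500 unique molecular identifiers (UMIs, 1 per captured RNA molecule), at least 200 genes and at most 10% mitochondrial UMIs. Col2a1 and Acan, which encode type II collagen and aggrecan, had to make up at least 1% of its UMIs, Col10a1, which encodes the type X collagen of hypertrophic cells, under 0.5%, and the cycle genes Mki67, Top2a and Cenpf together fewer than 3 UMIs. Control callus gave 1160 of these cells and GC callus 674. Neither trabecular bone library gave any: 0 of 3977 cells in control and 0 of 4788 in GC, which allow shares of up to 0.0754% and 0.0627%.

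The study asked how excess glucocorticoids (GCs) alter bone turnover, and profiled single cells from trabecular bone and fracture callus in 4 libraries. The callus libraries came from male C57BL/6J mice aged 20 weeks and were collected at week 2, the control without the hormone and the GC group under prednisolone, a synthetic GC, at 6.25 mg/kg/d. The labels describe slow-release pellets under the skin, with placebo pellets for controls, while the study's text describes daily injection for the fracture model. How many mice went into a library was not stated in the labels or the study's main text. Each condition is therefore 1 library, no test between conditions was possible, and every interval given covers counting error only. Control callus held 89924816 UMIs in 7571 barcodes of at least 500 UMIs and GC callus 64388215 UMIs in 7762 such barcodes, of which 13 were shared (0.172% of control and 0.168% of GC).

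Bone fractures heal through a cartilage intermediate. Chondrocytes under the transcription factor SOX9 lay down a matrix of type II, IX and XI collagens and aggrecan, then stop dividing, enlarge, switch on type X collagen, and give way to bone that is built on the calcified cartilage. GCs act through a nuclear receptor that binds palindromic DNA elements and also restrains the inflammatory factor NF-kappaB, and in growing cartilage they are known to slow growth.

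The cells carried the markers of chondrocytes. Over all their UMIs, Col2a1 stood at 59859 CPM in control and 44139 CPM in GC (CPM being UMIs scaled to the same total in each library), and Acan at 7328 and 6629 CPM. Both genes chose the cells, so these levels only describe the choice. Of the markers that took no part in it, Sox9, the master regulator of cartilage, stood at 1659 CPM in control and 1234 CPM in GC, against 62.4 and 34.8 CPM in the blood cells of the same libraries. Col9a1, a chain of type IX collagen, stood at 4342 and 3316 CPM against 153 and 48.7 CPM in blood cells. Hapln1, which ties aggrecan to hyaluronan, stood at 3823 and 3122 CPM, and Matn3, a matrix adaptor, at 2117 and 1587 CPM. After every cell had been thinned to 1000 UMIs, 70.4% of control chondrocytes held a Sox9 UMI (67.6 to 73.0%, exact interval, 788 of 1120 cells, 40 shallower cells left out) and 65.1% of GC chondrocytes did (61.3 to 68.7%, 429 of 659, 15 left out). The thinned shares in blood cells were 6.52% and 4.04%, so the label holds by Sox9 in both libraries. Unthinned, the Sox9 shares were 96.5% and 96.9%, at median depths of 22691 and 19312 UMIs.

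**Figure D1:**
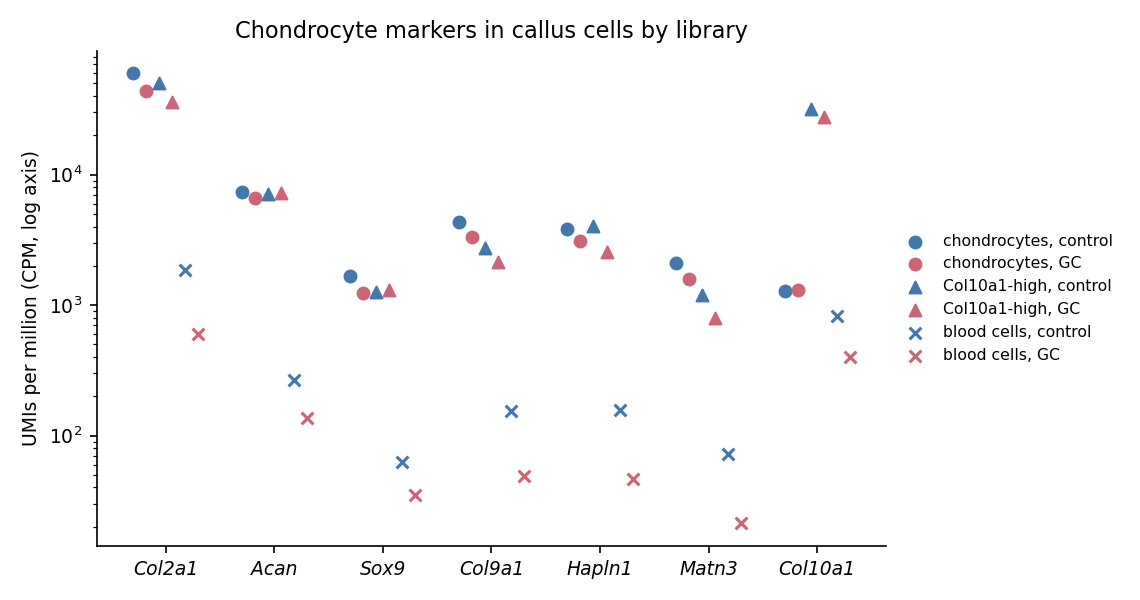
Levels of 7 genes in 3 kinds of callus cell, as CPM on a log axis, with 1 point per library (blue control, red GC). In the chondrocytes (circles) Sox9 stood at 1659 and 1234 CPM, against 62.4 and 34.8 CPM in blood cells (crosses), while Col2a1, Acan and Col10a1 chose the cells, so that their place beside the Col10a1-high chondrocytes (triangles) only shows the choice.

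The chondrocytes of the 2 libraries were alike in depth and quality. Their median UMI number was 22691 in control and 19312 in GC, their median gene number 4186 and 3960, and their median mitochondrial share 1.78% and 1.57%. Cells under 2000 UMIs numbered 67 in control and 36 in GC. Of the cells with at least 1% Col2a1 and Acan, they made up 41.7% in control (39.9 to 43.6%, 1160 of 2782) and 20.8% in GC (19.4 to 22.2%, 674 of 3247). The rest of those cells were mostly Col10a1-high, 1534 in control and 2556 in GC, and only 88 and 17 were left out for cycle genes. The Col10a1-high cells were much shallower in GC, with a median of 6495 UMIs against 24497.5 in control. These shares describe the outcome of the rule in 1 library each. Near-empty control barcodes, of 10 to 100 UMIs, held Col2a1 at 23123 CPM, Acan at 3140 CPM and Col10a1 at 11871 CPM. The rule's limits of 1% for Col2a1 and Acan and 0.5% for Col10a1 lie under these levels of free RNA. The part of free RNA in the shares was not tested. Just inside the Col10a1 threshold, from 0.4 to under 0.5% of UMIs, lay 60 control and 68 GC cells, and just outside, from 0.5 to under 0.6%, lay 52 and 62. From 1.0 to under 1.2% Col2a1 and Acan there were 31 and 24 chondrocytes, and from 0.8 to under 1.0% there were 37 and 30 cells outside the rule. Chondrocytes with 2 cycle UMIs numbered 15 and 10, and otherwise similar cells with 3 numbered 9 and 1.

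GC and control chondrocytes were compared over 7127 genes of at least 10 CPM on average, leaving out the 6 genes of the rule, as the log2 ratio of CPM + 5. In GC, 27 genes were at least 2-fold higher (0.379% of those compared) and 76 at least 2-fold lower (1.07%). Together these were 103 genes (1.45%), and 4137 genes (58%) were higher in GC by any amount. The median of all log2 ratios was 0.06. Among the 12 genes of lowest ratio (of those with at least 50 CPM in 1 library) were Cxcl1, Cxcl2, Ier3, Hilpda, Ero1l, Pfkfb3, Epyc and Itm2a, and 4 of the 12 highest were Ibsp, Postn, Tnn and Slc38a2. The lowest ratio of all was that of 1520401A03Rik at 97.2 CPM in control and 6.61 CPM in GC (-3.14, and -1.22 in cells of at least 10000 CPM of Ibsp). The globin genes Hbb-bs and Hbb-bt were also among the 12 lowest, the first at 404 and 134 CPM, and both were higher in GC in Col10a1-high chondrocytes.

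**Figure D2:**
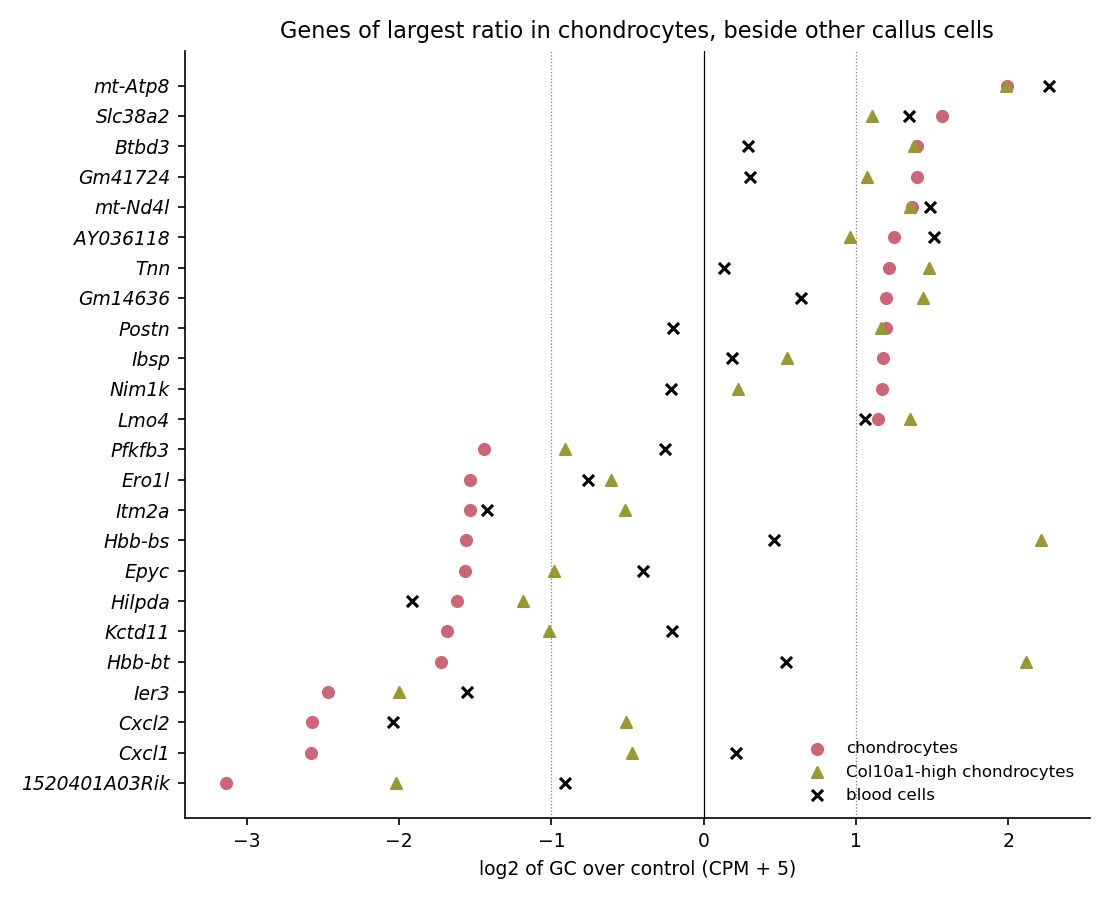
Log2 ratio of GC over control for the 12 highest and 12 lowest genes of the chondrocytes (circles), with the ratio of the same gene in Col10a1-high chondrocytes (triangles) and blood cells (crosses). Dotted lines mark 2-fold. Cxcl1 lay at -2.58 in chondrocytes and 0.22 in blood cells, whereas mt-Atp8 lay at 1.99 and 2.26.

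The cartilage collagens were lower in GC in these chondrocytes. All 6 collagen genes outside the rule had a lower level in GC, none by 2-fold. Their median log2 ratio was -0.44, and -0.25 in cells of at least 10000 CPM of Ibsp. Col9a2, a chain of the type IX collagen that coats type II fibrils, stood at 4107 CPM in control (4084 to 4131) and 2384 CPM in GC (2358 to 2409.8), or 0.58-fold (0.573 to 0.588). Col9a3, its partner chain, stood at 3527 and 2523 CPM (log2 ratio -0.48). Col11a1, whose product sets the diameter of the fibrils, went from 10882 to 9375 CPM (log2 ratio -0.21), and Col11a2 from 3030.4 to 2690.2 CPM (-0.17). Col27a1, a fibrillar collagen of cartilage, went from 1524 to 1068 CPM (-0.51). In Col10a1-high chondrocytes of the same libraries the 6 genes had a median of -0.35. In cycling chondrocytes, of which there were only 88 in control and 17 in GC, their median was -0.05. Free cartilage RNA also differed between the libraries, since Col2a1 in blood cells was 1869 CPM in control and 604 CPM in GC. That part in the chondrocytes was not tested beyond the correction for free RNA, under which the median of the collagens was -0.45.

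Among 18 compared genes of cartilage proteoglycans and matrix linkers, 13 were lower and 5 higher in GC, with a median log2 ratio of -0.37 and 1 gene, Epyc, at least 2-fold lower (1.07% of all genes compared). Epyc, which encodes epiphycan, a small proteoglycan of growth cartilage, stood at 113 CPM in control (109 to 117) and 34.9 CPM in GC (31.8 to 38.1), and its ratio was -0.50 in cells of at least 10000 CPM of Ibsp. Cnmd, which encodes chondromodulin, an inhibitor of vessel ingrowth, went from 1155 to 630.2 CPM, 0.546-fold (0.533 to 0.559). Ucma, a secreted cartilage protein of the less mature zones, went from 573 to 319 CPM, and Snorc, a membrane proteoglycan of chondrocytes, from 6220.4 to 4403 CPM. Against this trend, Chad, which encodes the cell-binding protein chondroadherin, went from 1141 to 1663 CPM (0.54), and Prg4, the lubricin gene of joint surfaces, from 28.3 to 48.3 CPM (0.68). Prg4 was highest in 81 GC cells led by myeloid genes (274 CPM, against 24.4 CPM in the other GC chondrocytes), and without these and the control clusters of neutrophil genes or low UMIs its ratio was -0.16. Comp, a pentameric adaptor between collagens, was level at 6118 and 6174 CPM. Of 8 small leucine-rich proteoglycans, 6 were lower. Prelp was 349 and 140.3 CPM (-1.29, and -0.23 in cells of at least 10000 CPM of Ibsp), and Bgn, which encodes biglycan, was higher, 2082 against 2882 CPM (0.47).

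Enzymes that build the sugar chains were divided, with 7 of 14 compared genes higher and 7 lower and a median of -0.00. Chst11, a chondroitin sulfotransferase, went from 534 to 351 CPM (-0.60) and Csgalnact1, which starts chondroitin chains, from 112 to 66.3 CPM (-0.72), whereas Papss2, which makes the sulfate donor, went from 482 to 699.9 CPM (0.53). Genes that fold and crosslink collagen did not share the lower level of the collagens. Of 19, 12 were higher and 7 lower, with a median of 0.09. Lox, the crosslinking enzyme lysyl oxidase, stood at 415 CPM in control and 773 CPM in GC (0.89), and Loxl2, a relative, at 381 and 629 CPM (0.72). Serpinh1, the collagen chaperone, differed little, 2215 against 2290.4 CPM (0.05). Proteases and their inhibitors were lower for 8 of 11 genes, with a median of -0.32. They included Mmp13, the collagenase of terminal chondrocytes, at 301 and 234 CPM (-0.36, but 0.17 under a Col10a1 limit of 0.1%). The inhibitor Timp1 was also lower, at 754 and 516 CPM (-0.54).

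**Figure D3:**
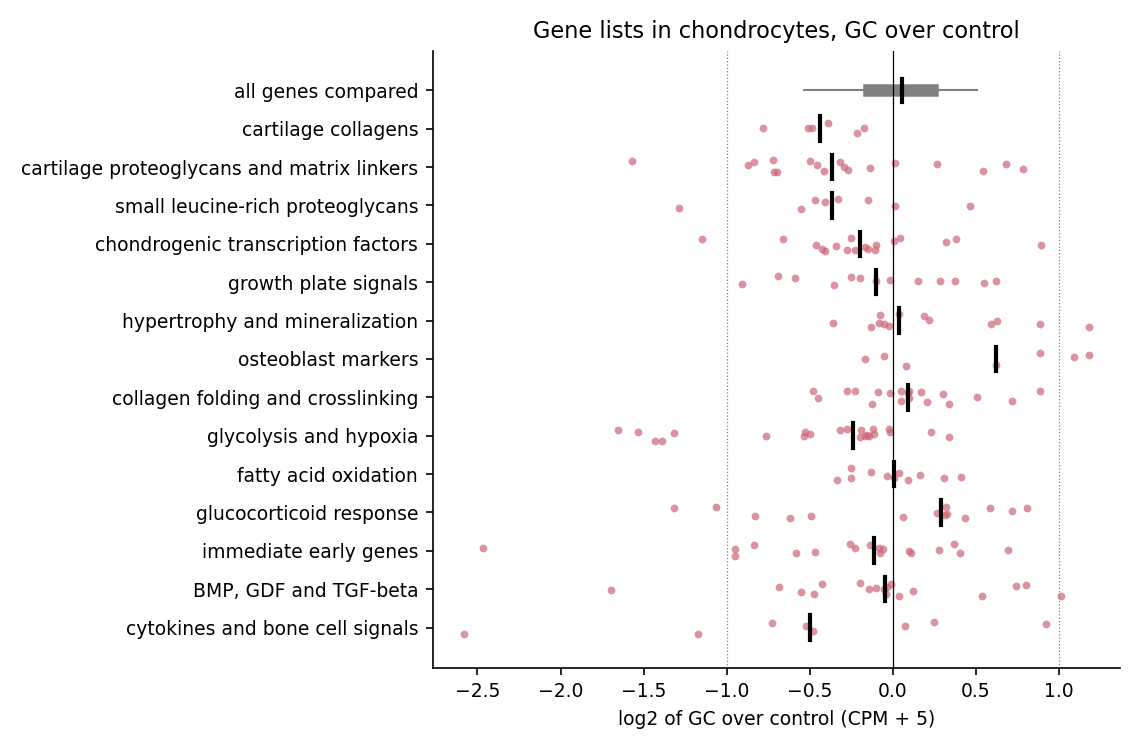
Log2 ratio of GC over control in the chondrocytes for 14 gene lists, 1 point per compared gene, with the list's median as a black bar. The top line gives all 7127 compared genes (median 0.06, thick line the middle 50%, thin line the middle 90%). The cartilage collagens had a median of -0.44 and the osteoblast markers 0.62.

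Of 18 compared transcription factors of the chondrocyte lineage, 13 were lower in GC and 5 higher, with a median of -0.20. Sox9 went from 1659 CPM in control (1644 to 1674) to 1234 CPM in GC (1215 to 1252), 0.744-fold (0.731 to 0.757), while in Col10a1-high chondrocytes it was level (1262 and 1295 CPM). Barx2, a homeobox gene of early cartilage, went from 65.2 to 26.7 CPM (-1.15). Scx, which encodes scleraxis, a factor of tendon and entheseal cells, was higher, 6.56 against 16.5 CPM (0.89). Growth plate signals had 5 genes higher and 8 lower of 13, with a median of -0.10. Ihh, the hedgehog ligand that marks the step into hypertrophy, stood at 42.9 CPM in control (40.5 to 45.4) and 68.8 CPM in GC (64.5 to 73.3), while Ptch1, its receptor and target, went from 384 to 253 CPM (-0.59). The growth factors Igf1 and Igf2 were lower, 56.3 against 33.1 CPM (-0.69) and 33.0 against 15.3 CPM (-0.91). Pth1r, the receptor for parathyroid hormone-related protein, was 667 and 742 CPM (0.15), and Fgfr1 169.9 and 251 CPM (0.55).

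Ibsp and Col1a1 were each over 2-fold higher in GC, while the list of hypertrophy and mineralization was balanced. Ibsp (ENSMUSG00000029306, chr5:104299171-104311469, plus strand, in the GRCm38 annotation), which encodes bone sialoprotein, a nucleator of mineral, stood at 6342 CPM in control (6313 to 6371) and 14369 CPM in GC (14306 to 14432), 2.27-fold (2.25 to 2.28). Col1a1, the main collagen chain of bone and fibrous tissue, went from 6901 to 14742 CPM, 2.14-fold (2.12 to 2.15), and Col1a2 from 11249 to 17319 CPM. Alpl, the alkaline phosphatase that frees phosphate for mineral, went from 936 to 1449.9 CPM (log2 ratio 0.63), and Dmp1, a matrix protein of osteocytes, from 26.1 to 52.5 CPM (0.89). By contrast Spp1, the osteopontin gene, was 4392 and 4997 CPM (0.19), but it was lower in GC within each range of Ibsp given below. Of that list 7 of 13 genes were higher and 6 lower, with a median of 0.04. Osteoblast markers had 5 of 7 higher, a median of 0.62, and a summed level of 24653 CPM in control and 46609 CPM in GC, with Col1a2 the most abundant in both libraries and none at 0. In cells of at least 10000 CPM of Ibsp the median was 0.04. Sp7, a gene of this list, was lower in GC in each range of Ibsp given below (-0.25, -0.43 and -0.34, lowest range first). Runx2, of the transcription factor list, was lower in each as well (-0.59, -0.48 and -0.39). The part of osteoblast RNA in these ratios was not tested. Ibsp and Col1a1 were also higher in GC in the other chondrocytes. Col10a1-high cells held Ibsp at 15434 CPM in control and 22517 CPM in GC (0.54) and Col1a1 at 2566 and 6771 CPM (1.40). In cycling chondrocytes the ratios were 0.53 and 1.09. Blood cells held Ibsp at 338 CPM in control and 386 CPM in GC and Col1a1 at 300.3 and 314 CPM. Near-empty control barcodes held Ibsp at 4872 CPM and Col1a1 at 3058 CPM, and no such barcodes of GC were analysed here. With free RNA taken off at the share that blood cells gave, the ratio of Ibsp was 1.17 and that of Col1a1 1.08. Among genes of fibrous matrix, Postn, which encodes periostin, stood at 254 and 587 CPM, 2.32-fold (2.24 to 2.39), and Tnn, which encodes tenascin W, at 147 and 348 CPM.

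The higher Ibsp went with a larger share of cells that held much Ibsp. Among chondrocytes of at least 5000 UMIs, the cell at the middle of the control library (1054 cells) held 332 CPM of Ibsp and that of GC (601 cells) 5518 CPM, while cells at the 90th percentile held 19844 and 44261 CPM. Chondrocytes under 1000 CPM of Ibsp were 65.3% in control (62.3 to 68.2%, 688 cells) and 31.6% in GC (27.9 to 35.5%, 190 cells). Those of 10000 CPM or more were 16.9% (14.7 to 19.3%, 178 cells) and 38.9% (35.0 to 43.0%, 234 cells). These are ranges of a continuous level, with 41 and 28 cells from 800 to under 1250 CPM, around the lower limit, and 44 and 40 cells from 8000 to under 12500 CPM, around the upper. In the low range Ibsp summed to 267 CPM in control and 289 CPM in GC, at or under the level of blood cells. Median depth was near in the high range, 22389.5 and 19552.5 UMIs, and Col10a1 was 0.103% and 0.0976% of UMIs in the median cell.

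Within a range of Ibsp, several of the differences shrank and others did not. Of the genes followed one by one that were 2-fold apart over all chondrocytes, 12 of 21 lower and 6 of 14 higher ones, Ibsp itself included, were under 2-fold in cells of 10000 CPM or more. Many of these genes were followed for their large ratios over all chondrocytes, and the ratio of Ibsp is set by the range. Of all 7080 genes compared in that range, 34 were at least 2-fold higher and 40 lower. Over all chondrocytes these were 27 and 76 of 7127. In cells of 10000 CPM or more, Col1a1 (23114 and 23845 CPM) and Alpl (1869 and 1884 CPM) were close between libraries, with log2 ratios of 0.04 and 0.01, and Postn (234 and 354 CPM) and Tnn (177 and 265 CPM) had ratios of 0.58 and 0.57. Some genes that were higher in GC over all chondrocytes were lower there: Dmp1 had a ratio of -0.62, Spp1 -0.54 and Prg4 -0.39, and Chad, Col1a2 and Fgfr1 came to -0.05, -0.05 and -0.03. Sox9 there was 1324 and 1175 CPM (-0.17), and Ucma 115 and 94.0 CPM (-0.28). Spp1 was lower in the other ranges too, at -0.02 in the lowest and -0.36 in the middle one. In the highest range Col11a1 came to -0.02, Col9a1 to -0.12 and the median of the cartilage collagens to -0.25. Col9a2 was lower in GC in each range, with ratios of -0.69, -0.69 and -0.51 from the lowest range to the highest. Slc2a1 had -1.49, -1.15 and -1.28, Hilpda -1.74, -1.15 and -1.69, and Ier3 -2.55, -2.06 and -1.81. The glycolysis and hypoxia list as a whole came to a median of -0.02 in the highest range, where Ndrg1 was -0.50, Ero1l -0.87, Cxcl1 -0.98 and Nfkbia -0.03. Col1a1 in the lowest range of Ibsp was 2211 CPM in control and 6507 CPM in GC, a log2 ratio of 1.56, so its higher level was not limited to cells with much Ibsp.

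**Figure D4:**
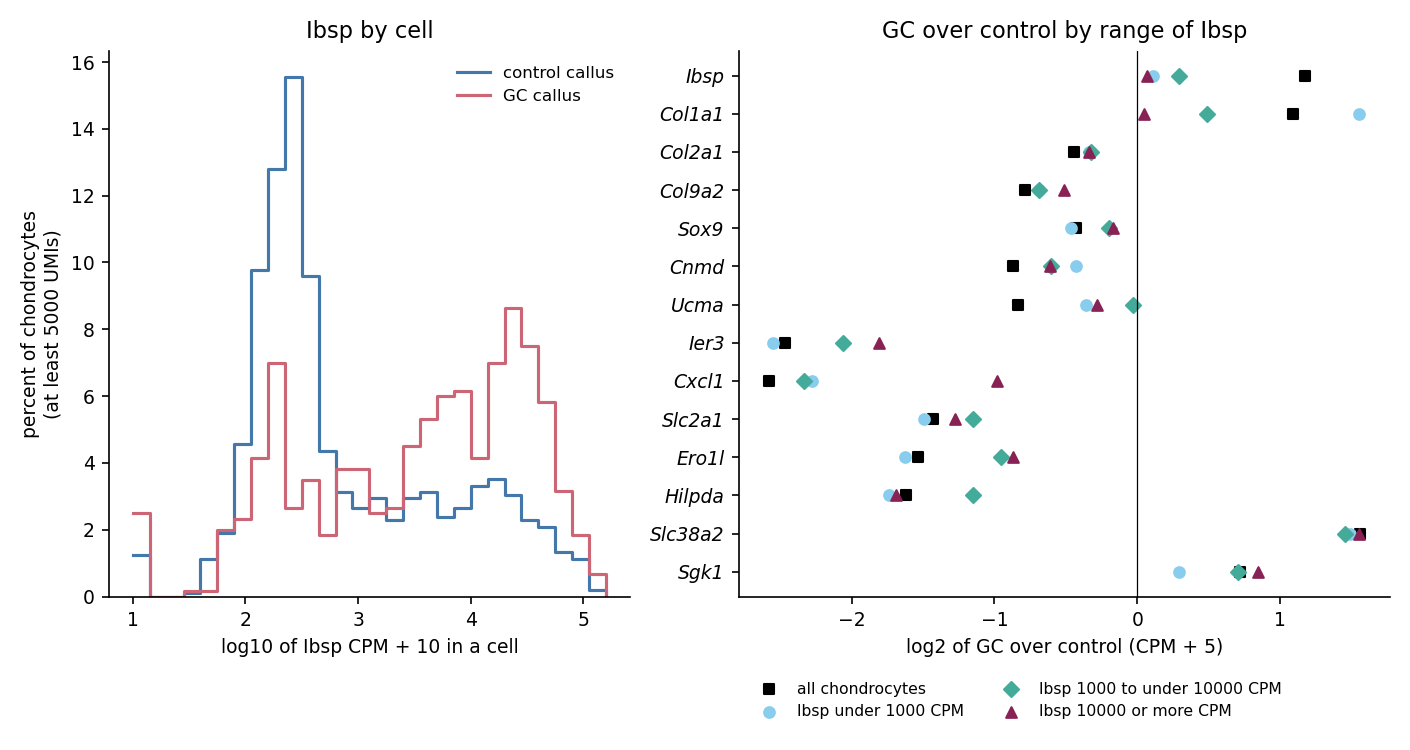
Left, percent of chondrocytes of at least 5000 UMIs by their Ibsp level on a log10 scale (blue control, red GC). Right, log2 ratio of GC over control for 14 genes in all chondrocytes (squares) and within 3 ranges of Ibsp. In the highest range Col1a1 lies at 0.04 and Ier3 at -1.81. The ratio of Ibsp within a range is set by the range, and Col2a1 is a gene of the rule.

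Glycolysis and hypoxia genes were lower in GC for 20 of 22, with a median log2 ratio of -0.24, and 5 of the 22 were at least 2-fold lower, where 1.07% of all genes compared were. The 5 were mainly responders to low oxygen. Slc2a1, the glucose transporter GLUT1, stood at 537 CPM in control (528 to 545) and 196 CPM in GC (189 to 204). Ero1l, an oxidase that serves disulfide formation under hypoxia, went from 296 to 98.96 CPM. Egln3, an oxygen-sensing prolyl hydroxylase, went from 38.1 CPM (35.9 to 40.5) to 8.70 CPM (7.22 to 10.4), Ankrd37 from 45.5 to 15.3 CPM, and Ndrg1, a stress-response gene, from 109 to 38.7 CPM. In control, 1 cluster of 172 cells described below held Slc2a1 at 1298, Ero1l at 889, Egln3 at 128 and Ndrg1 at 319.8 CPM. The other control chondrocytes held 366, 163, 18.02 and 62.0 CPM of these genes. The part of that cluster in the ratios was not tested. Enzymes of the main glycolytic path differed less: Gapdh was 954 and 938 CPM (-0.02), Ldha 687 and 618 CPM (-0.15), and Aldoa was higher, 269 against 342 CPM (0.34). Hif1a, the oxygen-regulated factor itself, was 811 and 709 CPM (-0.19). Outside the list, Hilpda, a lipid droplet protein of hypoxia, went from 617 to 198 CPM (-1.62), and Pfkfb3, an activator of glycolysis, from 188 to 66.1 CPM (-1.44). Most of these genes were also lower in other callus cells of GC. Hilpda had ratios of -1.19 in Col10a1-high chondrocytes and -1.91 in blood cells, Slc2a1 -0.60 and -1.19, and Egln3 -0.96 and -2.09. Ndrg1, at -0.38 and 0.47, did not follow in blood cells. The part of tissue handling or library chemistry in these genes was not tested.

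Fatty acid oxidation had no common direction. Of 11 genes, 6 were higher and 5 lower, with a median of 0.01. Hadhb, a subunit of the trifunctional enzyme, was 31.1 and 43.1 CPM (0.41), and Hadh, the 1 gene of the list with at least 50 CPM on average, had a ratio of -0.34. Slc38a2, a sodium-coupled transporter of small amino acids, was 220.3 CPM in control (215 to 226) and 661 CPM in GC (647 to 674), a log2 ratio of 1.56, in a list of 11 of which 9 were higher, with a median of 0.19. It was higher in GC blood cells too, 408 against 1049 CPM.

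Several of the highest ratios occurred in all 3 kinds of callus cell. The mitochondrial genes mt-Atp8 (58.2 to 246 CPM, 1.99) and mt-Nd4l (233 to 607 CPM, 1.37) had ratios of 2.26 and 1.48 in blood cells. AY036118, a transcript of the ribosomal RNA locus, stood at 98.9 and 242 CPM in chondrocytes and at 271 and 783 CPM in blood cells. Lmo4, a transcriptional adaptor, had ratios of 1.15 and 1.06. Of 13 mitochondrially encoded genes 8 were higher and 5 lower, with a median of 0.18. Ribosomal protein genes were lower for 55 of 81, with a median of -0.15 and 3 genes at least 2-fold lower (1.07% of all genes compared).

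Cxcl1, Cxcl2 and Ier3 had 3 of the 4 lowest ratios. Cxcl1, a neutrophil attractant, stood at 205 CPM in control (199.5 to 210.1) and 30.0 CPM in GC (27.2 to 33.1), 0.147-fold (0.133 to 0.162). It was 38.9 and 26.6 CPM in Col10a1-high chondrocytes and 9.43 and 11.8 CPM in blood cells. Cxcl2, a close relative, went from 143 to 19.9 CPM, but blood cells held far more of it, 4789 CPM in control and 1163 CPM in GC, and how much of it in the chondrocytes came from them was not tested. Ier3, an early response gene that modulates cell survival, went from 919 to 162 CPM (-2.47), and stood at 590.3 and 144 CPM in Col10a1-high chondrocytes and 711 and 239 CPM in blood cells. Of 18 immediate early genes, 12 were lower and 6 higher, with a median of -0.11, and 1 was at least 2-fold lower (1.07% of all genes compared). Junb went from 687 to 354 CPM (-0.95), whereas Fos was 624 and 522 CPM (-0.26) and Klf6 higher, 389 against 631 CPM (0.69). Among 8 cytokines and signals to bone cells, 2 were at least 2-fold lower (1.07% of all genes compared), Cxcl1 and Lif, the latter at 70.5 and 28.5 CPM (-1.17). Tnfrsf11b, which encodes the osteoclast inhibitor osteoprotegerin, was higher, 123 against 237 CPM (0.92).

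Textbook targets of the GC receptor did not move as 1 group. Of 14 compared genes of GC response, 9 were higher and 5 lower. Their median was 0.29, and -0.00 in cells of at least 10000 CPM of Ibsp. None was at least 2-fold higher (0.379% of all genes compared) and 2 were at least 2-fold lower (1.07%). Sgk1, a kinase induced by steroid hormones, stood at 496 CPM in control (488 to 504) and 819.9 CPM in GC (805 to 835), 1.65-fold (1.61 to 1.69). Klf9, a transcription factor under direct GC control, went from 205 to 309.8 CPM (0.59). Fkbp5, the receptor cochaperone that responds in most tissues, was 23.9 and 31.3 CPM (0.33, but -0.40 after thinning to 1000 UMIs). Tsc22d3, the anti-inflammatory leucine zipper GILZ, was 95.9 and 121 CPM (0.32, and 0.003 in cells of at least 10000 CPM of Ibsp). Lower were Per1, a clock gene, at 44.3 and 30.0 CPM (-0.49), Ddit4, an inhibitor of mTOR that hypoxia also induces, at 54.1 and 18.7 CPM (-1.32), and Nfkbia. Nfkbia encodes IkappaB-alpha, both a target and the inhibitor of NF-kappaB, and went from 320.0 CPM (313 to 327) to 150.3 CPM (144 to 157). In Col10a1-high chondrocytes Nfkbia was 127 and 146 CPM. The receptor gene Nr3c1 was the same within counting error, 76.0 CPM (72.8 to 79.3) and 72.5 CPM (68.1 to 77.1).

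The bases before the start sites of 5 of these genes are shown because each holds the letters bound by a factor named above. They run from 250 bases before the start up to it, from RefSeq on GRCm38.p6, on the gene's own strand, and the capitals mark the letters searched on both strands: the kappaB consensus of NF-kappaB in the first 3, ACGTG for the hypoxia factor in Ankrd37, and the full palindrome of the GC receptor in Sgk1.
Cxcl1, chr5:90890995-90891244, plus strand: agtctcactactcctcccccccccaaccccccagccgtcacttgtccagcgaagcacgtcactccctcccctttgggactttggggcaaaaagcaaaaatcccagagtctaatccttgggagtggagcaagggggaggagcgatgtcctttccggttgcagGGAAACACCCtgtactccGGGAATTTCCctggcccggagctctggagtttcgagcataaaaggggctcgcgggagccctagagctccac
Cxcl2, chr5:90903649-90903898, plus strand: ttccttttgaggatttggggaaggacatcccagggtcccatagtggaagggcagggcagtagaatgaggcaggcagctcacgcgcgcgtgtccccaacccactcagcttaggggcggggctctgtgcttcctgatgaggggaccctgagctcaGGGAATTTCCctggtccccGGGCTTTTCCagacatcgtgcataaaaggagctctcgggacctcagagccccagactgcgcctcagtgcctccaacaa
Nfkbia, chr12:55492648-55492897, minus strand: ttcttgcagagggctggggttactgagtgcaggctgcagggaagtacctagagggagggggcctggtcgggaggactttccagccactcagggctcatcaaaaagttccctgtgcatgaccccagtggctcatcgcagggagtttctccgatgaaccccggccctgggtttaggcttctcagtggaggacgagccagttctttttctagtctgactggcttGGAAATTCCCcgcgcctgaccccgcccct
Ankrd37, chr8:45999851-46000100, minus strand: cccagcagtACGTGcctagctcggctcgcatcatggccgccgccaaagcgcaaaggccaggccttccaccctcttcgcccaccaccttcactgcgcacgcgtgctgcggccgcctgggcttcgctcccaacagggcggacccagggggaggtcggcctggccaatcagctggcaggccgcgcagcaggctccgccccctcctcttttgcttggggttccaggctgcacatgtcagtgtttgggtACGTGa
Sgk1, chr10:21993640-21993889, plus strand, the window of 1 of 6 listed starts: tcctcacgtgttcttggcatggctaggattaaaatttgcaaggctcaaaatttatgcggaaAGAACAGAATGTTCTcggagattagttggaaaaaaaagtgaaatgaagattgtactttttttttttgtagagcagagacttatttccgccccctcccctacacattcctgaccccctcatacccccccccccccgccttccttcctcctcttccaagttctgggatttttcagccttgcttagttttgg

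Cxcl1 and Cxcl2 each hold 2 matches to the kappaB-like letters, from 89 to 62 and from 97 to 69 bases before the start, and Nfkbia 1. Such a match is held by 1.65% of the 27025 genes with a RefSeq promoter. Of the 12 lowest genes 11 had a promoter, of which Cxcl1 and Cxcl2 held it, and of the 12 highest 9 had one, of which Tnn held it. None of 20 matched genes of the glycolysis and hypoxia list did. The ACGTG letters were in 18.5% of all genes, in 5 of the 11 lowest (45.5%: Cxcl1, Epyc, Hilpda, Ier3 and Pfkfb3), in Lmo4 of the 9 highest (11.1%), in 12 of 20 matched genes of the glycolysis and hypoxia list (60%) and in 8 of 16 matched genes of the GC response list (50%). The receptor's palindrome was in 3 genes of all (0.0111%), Sgk1 among them. The match in Sgk1 lies 189 to 175 bases before the start shown. The shares over all genes were not limited to the 7127 genes compared in these cells, so they are not a like baseline for these sets. These are matches of letters and were not tested as binding sites.

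Growth factor genes of the BMP and TGF-beta families were mixed, with 6 of 18 higher, 12 lower and a median of -0.05. Bmp2, an inducer of bone and of chondrocyte maturation, went from 119 CPM (115 to 123) to 245 CPM (237 to 253), 2.06-fold (1.96 to 2.16), and Bmp6, a ligand of maturing chondrocytes, from 61.3 to 106 CPM (0.74). Grem1, a secreted BMP antagonist, was lower, 22.9 CPM (21.1 to 24.7) against 3.59 CPM (2.67 to 4.74). Sfrp5, a Wnt antagonist of resting cartilage, went from 195 to 85.0 CPM (-1.15) in a list of Wnt genes of which 2 of 8 were higher and 6 lower. With Ucma and Clu it makes up the compared reserve zone markers, which had 1 gene higher, 2 lower and a median of -0.83. Vegfa, the signal that draws vessels into cartilage, was 658 and 525 CPM (-0.33). Cdkn1a, the cycle inhibitor p21, was 1633 and 1287 CPM (-0.34).

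Other lists had medians from -0.09 to 0.44. The unfolded protein response had 8 of 16 genes higher (median -0.01), cytosolic heat shock genes 5 of 9 (0.05), survival genes and cycle inhibitors 6 of 12 (-0.01), and the GC receptor with its cofactors 3 of 7 (-0.03). Lipid uptake and storage had 3 of 7 higher (-0.09), nuclear genes of oxidative phosphorylation 47 of 76 (0.05), and angiogenic signals and inhibitors 3 of 6 (-0.04). Genes of IGF binding had 4 of 7 higher, with a median of 0.30 (-0.09 over the 2 genes of at least 50 CPM, Igfbp7 and Irs2) and 1 gene at least 2-fold higher (0.379% of all genes compared), Igfbp5, which stood at 17.0 and 40.8 CPM. All 4 compared genes of DNA replication were higher (0.44), all at low levels that summed to 131 CPM in control and 164 CPM in GC over the list. Interferon and MHC class I genes had 1 of 3 higher (-0.05), and superficial zone markers 2 of 3 (0.27). The last turned to -0.16 without the clusters of neutrophil genes or low UMIs.

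Within each library the chondrocytes were clustered on their own, giving 7 clusters in control and 6 in GC. In control, cluster 1 (257 cells) was led by Lrrc8d, Ccl5 and Cxcl1, the last at 416 CPM against 138 CPM in the other chondrocytes. Cluster 2 (216 cells) was led by Bglap, the osteocalcin gene, at 183 against 19.1 CPM and by Mmp13 at 1007 against 137 CPM. Cluster 3 (210 cells) combined Ihh (112 against 26.2 CPM), Ibsp (14780 against 4311 CPM) and Fos (1486 against 416 CPM). Cluster 4 (192 cells) was led by Trabd2b, Penk, Cilp and Ogn and had the highest Ucma, 1243 CPM, with Ibsp at 331 CPM, at the level of blood cells. Cluster 5 (172 cells) was led by the hypoxia genes Egln3 (128 against 18.02 CPM), Ero1l (889 against 163 CPM) and Ndrg1 (319.8 against 62.0 CPM). The last 2 were of another kind: cluster 6 (62 cells) was led by the neutrophil genes Ngp and Camp with S100a8 at 1620 against 40.2 CPM, and cluster 7 (51 cells) had a median of 793 UMIs and was led by Ccl3, Ly6d, Il1rn and Cxcl2 (1790 against 140 CPM). Pclaf and Mki67, genes of dividing cells, were also among its leading genes, Mki67 at 60.3 against 2.27 CPM. At the depth of this cluster both levels rest on few UMIs. Mki67 is also a gene of the rule, so its level only describes the choice. The rule's limit of 3 UMIs on Mki67, Top2a and Cenpf is harder to reach in cells of so few UMIs. All 7 held Col2a1, from 49625 to 65894 CPM, which the rule required and which does not tell what the cells were.

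In GC, cluster 1 (140 cells) was led by Eln, the elastin gene, at 138 against 9.71 CPM, and held the highest Slc2a1 of the library, 335 CPM. Cluster 2 (128 cells) was led by Hspa1a and Smim5, with Ibsp at 21140 CPM. Cluster 3 (125 cells) was led by Hbb-bs and by F13a1, the factor XIII gene of maturing chondrocytes, at 1193 against 215 CPM, and had the highest median Col10a1, 0.269% of UMIs. Cluster 4 (108 cells) was led by Bglap (204 against 12.4 CPM) and Bglap2. Cluster 5 (92 cells) was led by Zfp36, Fos (1849 against 331 CPM) and Junb, with Ibsp at 29403 CPM and Ihh at 182 CPM. Cluster 6 (81 cells) was led by Lyz2, Retnlg and S100a9, genes of myeloid cells, beside Prg4 (274 against 24.4 CPM) and Cilp, and held the lowest Col2a1 of the library, 28567 CPM. The leading genes define the clusters and are not results about GCs, and no cluster was named as a type. Ihh, Fos and Ibsp were high together in control cluster 3 and in GC clusters 2 and 5, of which cluster 2 held Ihh at 112 against 60.3 CPM and Fos at 1033 against 423 CPM. The clusters led by Bglap differed between the libraries, with Ibsp at 13495 against 4677 CPM in control cluster 2 and at 6816 against 16095 CPM in GC cluster 4. Cxcl1 was highest in control at 416 CPM, in cluster 1, and in GC at 53.7 CPM, in cluster 4.

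**Figure D5:**
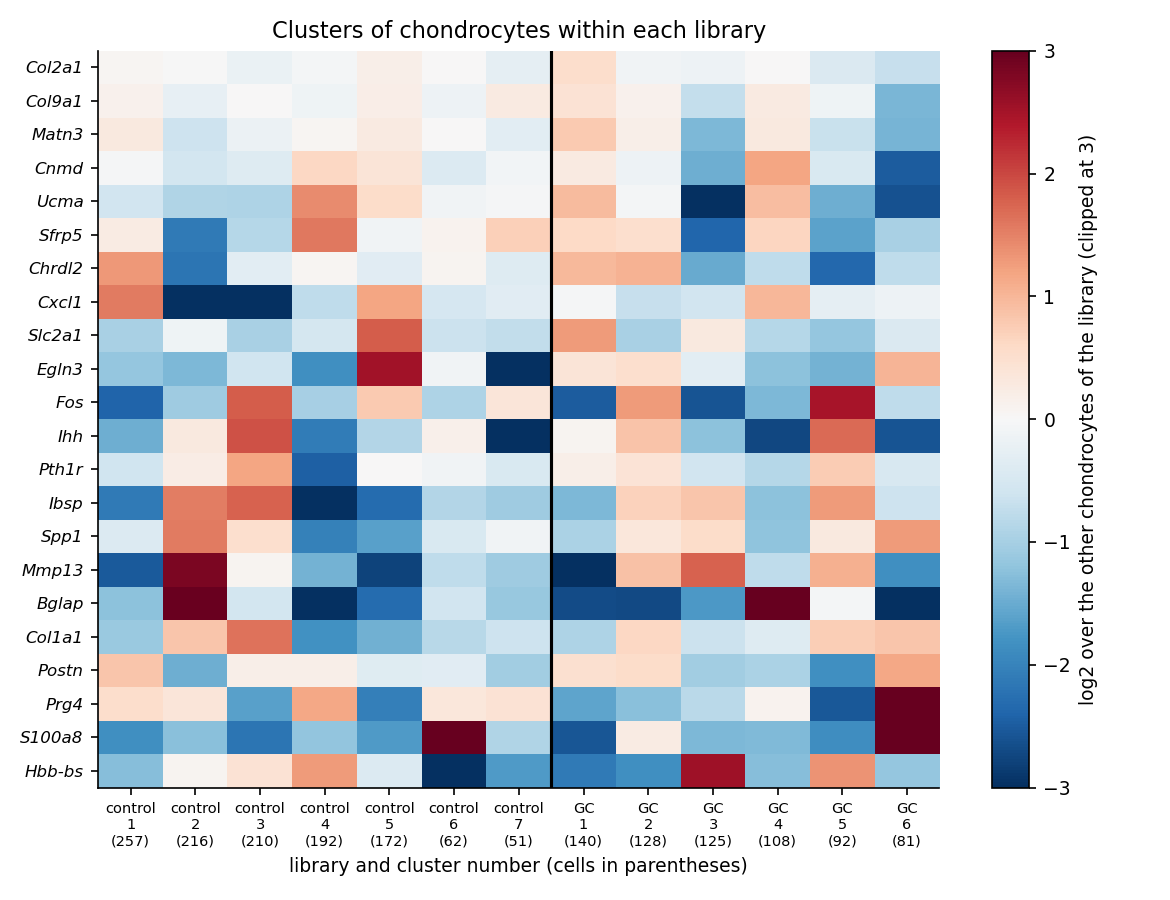
Level of 22 genes in each cluster of chondrocytes, as the log2 ratio over the other chondrocytes of the same library (red higher, blue lower, clipped at 3), with the 7 control clusters left of the black line and the 6 GC clusters right of it. Ibsp was high with Ihh and Fos in control cluster 3 and GC clusters 2 and 5, and S100a8 was high in control cluster 6 and GC cluster 6.

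Markers of other cells were low apart from bone and fibrous matrix. Neutrophil markers summed to 281 CPM in control and 132 CPM in GC, with S100a8 the most abundant in both and none of the 7 at 0, and erythroid markers to 575 and 216 CPM, led by Hbb-bs. Macrophage markers summed to 42.7 and 49.7 CPM with Lyz2 the most abundant, and T cell markers to 1.10 and 0.431 CPM. Endothelial markers summed to 11.1 and 6.04 CPM, with 1 of 4 at 0 in GC, and muscle markers to 13.97 and 7.26 CPM. B cell markers summed to 19.8 and 11.7 CPM, led by Ighm, and osteoclast markers to 110.3 and 109.7 CPM, led by Ctsk. Stromal markers summed to 2439 and 2962 CPM, led by Col3a1. The part of these cells in the ratios was not tested. Only 11 control and 8 GC chondrocytes held 0.2% or more of their UMIs in 5 pan-leukocyte genes. The X-inactivation RNA Xist had 3 UMIs in all control chondrocytes and 1 in all GC chondrocytes, while Ddx3y of the Y chromosome stood at 133 and 141 CPM, as in male mice.

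Against the Col10a1-high chondrocytes of the same library, which differ by the rule in Col10a1, the chondrocytes were at least 2-fold higher in 243 genes (3.41%) and lower in 122 (1.71%) in control, and in 119 (1.67%) and 95 (1.33%) in GC. In both libraries 98 genes (1.38%) were higher and 57 (0.8%) lower. C1qtnf3, a secreted protein of growing cartilage, stood at 1414 CPM in control and 1232 CPM in GC, against 217 and 235 CPM in Col10a1-high cells. H19, an imprinted noncoding RNA, stood at 388 and 245 CPM against 55.9 and 48.1 CPM, and Ucma at 573 and 319 CPM against 93.8 and 68.6 CPM. Ptch1 was higher as well, 384 and 253 CPM against 71.2 and 76.0 CPM. Among the lower genes, Aldh1a3, an enzyme that makes retinoic acid, stood at 61.6 and 65.3 CPM against 521 and 336 CPM, and F13a1 at 196 and 337 CPM against 818 and 1019 CPM. The 2 kinds of cell share their libraries, and their split was made on the cells compared, so these values describe the chondrocytes and carry no test. Between GC and control, Col10a1-high cells had 46 of 6987 genes at least 2-fold higher (0.658%), 19 lower (0.272%), 65 in either direction (0.93%) and 3968 higher by any amount (56.8%). The response to GCs was not tested for a difference between them, and the ratios stand side by side above.

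Cycling chondrocytes, which the rule set apart by 3 cycle genes, were only 88 in control and 17 in GC. Against them the chondrocytes were at least 2-fold higher in 34 genes (0.477%) and lower in 108 (1.52%) in control, and in 173 (2.43%) and 130 (1.82%) in GC. In both libraries 15 genes were higher (0.21%) and 68 lower (0.954%). The lowest ratios were those of cycle genes of under 10 CPM on average over both libraries, which were not among the compared genes. Stmn1, a microtubule regulator of dividing cells, stood at 13.2 and 4.74 CPM in the chondrocytes against 700.4 and 430.2 CPM in cycling cells, and Cdk1, the mitotic kinase, at 2.16 and 1.51 CPM against 212 and 113 CPM.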

How the data were processed

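Single-cell RNA was captured with 10x Genomics droplets from 2 callus and 2 trabecular bone libraries. Per the labels, the authors aligned and counted with Cell Ranger 5.0.1 on mm10 and analysed with Seurat 3.2.0, while the headers of both callus matrices name Cell Ranger 4 (4.0.0 in GC), and they deposited raw UMI counts per gene and barcode, with no normalization. The control callus matrix lists all barcodes and the GC callus matrix only barcodes of at least 500 UMIs, so empty droplets had been taken out of GC alone. Here counts were summed over the chondrocytes of a library and scaled to CPM over all genes, including those of the rule. Ratios were log2 of CPM + 5 for genes of at least 10 CPM on average, with exact (95%) Poisson, conditional and Clopper-Pearson intervals. These intervals take UMIs as independent and cover counting error only, without the spread between cells. That spread was wide for some genes. Ibsp in control chondrocytes of at least 5000 UMIs ran from 108 CPM at the 10th percentile to 19844 CPM at the 90th. With 1 library per condition no test was run. Blood cells were callus cells under 1% Col2a1 and Acan with at least 0.2% of UMIs from Ptprc, Tyrobp, Laptm5, Coro1a and Cd52. Clusters used 2000 variable genes, 20 components, 15 neighbours and Leiden resolution 0.6 (leidenalg 0.10.2, Python 3.11.15), within each library. No doublets were removed, except in an alternative. Named genes were those of 42 lists, the 12 highest and 12 lowest ratios at 50 CPM or more in 1 library, the 12 furthest from Col10a1-high cells both ways, each cluster's 8 leading genes, and the 15 most abundant; some of these are not named in the text. The members and the lists were chosen with earlier results of these data known. The ratio and interval code was tested on simulated data.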

Additional observations from a re-analysis of the deposited data

Results flagged for a closer look

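In 7 of 520 genes looked at (those of the lists and the named genes with at least 10 CPM in both kinds of cell), the chondrocytes and the Col10a1-high chondrocytes differed by at least 1.5-fold between GC and control in opposite directions. The difference between them was not tested, and each direction rests on 1 library per condition. Ihh had a log2 ratio of 0.62 in the chondrocytes (42.9 to 68.8 CPM) and -0.93 in Col10a1-high cells (265 to 136 CPM). Igfbp4, which binds insulin-like growth factors, had -0.71 and 0.62. The other 5 were genes of blood: Hbb-bt (-1.73 in the chondrocytes, 2.12 in Col10a1-high cells), Hbb-bs (-1.56 and 2.21), Hba-a1 (-0.73 and 2.38), Ngp (-1.46 and 1.85) and S100a9 (-0.91 and 0.96). Col10a1-high cells had a median of 24497.5 UMIs in control and 6495 in GC, and the part of that in these genes was not tested.

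The trabecular bone libraries gave no chondrocyte, yet GC trabecular bone held 58 UMIs of Col2a1, or 1.46 CPM (1.11 to 1.89, exact interval), against 2 UMIs in control trabecular bone, or 0.0561 CPM (0.00679 to 0.203). They lay in 3 cells of GC, with 56 in 1 cell.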

How the results depend on the processing

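Counts of genes past 2-fold and most list medians were recomputed under 17 alternatives, and counts of cells under 8 of them, with 3 more chosen after seeing the data (cells of low or high Ibsp, and leaving out the clusters of neutrophil genes or low UMIs). The median of the cartilage collagens stayed below 0 in all 20, from -0.51 to -0.25. The median of GC response ranged from -0.00 in cells of 10000 CPM of Ibsp or more to 0.32. A Col10a1 limit of 0.1% left 733 control and 396 GC chondrocytes. Genes at least 2-fold higher and lower numbered 142 and 172 after thinning to 1000 UMIs, where 659 GC cells give few UMIs per gene, 42 and 115 with a pseudocount of 1, 11 and 28 with a pseudocount of 20, and 14 and 28 at 50 CPM or more. In cells of 10000 CPM of Ibsp or more 34 were higher and 40 lower, against 27 and 76 over all chondrocytes. Centring on the median of all genes gave 23 and 94. Under that setting and every other, Ibsp, Col1a1, Slc38a2, Ier3, Cxcl1 and Slc2a1 kept their direction, although Ibsp came to 0.07 and Col1a1 to 0.04 in cells of high Ibsp. Of 67 genes followed, 8 changed sign under at least 1 alternative: Fkbp5 (-0.40 after thinning), Mmp13 (0.17 under 0.1% Col10a1) and, in cells of high Ibsp, Dmp1 (-0.62), Spp1 (-0.54), Prg4 (-0.39, and -0.16 without the clusters of neutrophil genes or low UMIs), Chad (-0.05), Col1a2 (-0.05) and Fgfr1 (-0.03). Spp1 was also -0.02 in cells of low Ibsp and -0.02 without the clusters of neutrophil genes or low UMIs.

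Of 40 list medians, 25 had the other sign under at least 1 alternative, among them those of cytokines (up to 0.08), IGF binding (-0.09 at 50 CPM or more, over 2 genes), small leucine-rich proteoglycans (up to 0.01) and fatty acid oxidation (-0.34 at 50 CPM or more, where Hadh alone was left). For 3 of them all compared genes had lain on one side of 0: DNA replication (-0.0167 with no minimum beyond 1 UMI), neutrophil markers (0.17 as the mean of cell CPM, 0.0211 thinned) and macrophage markers, with 1 compared gene (-0.48 under 0.1% Col10a1, -0.70 with doublets removed, -0.0163 as the mean of cell CPM, -0.29 thinned, -0.0271 with no minimum and -0.38 without the clusters of neutrophil genes or low UMIs). For each of these the cause was not tested. Taking off free RNA (1.30% of control and 0.574% of GC chondrocyte UMIs) gave 31 higher and 68 lower. No paired analysis was possible because each condition is 1 library. Genes under 10 CPM on average were not compared in the main setting, and how far depth limits them was not tested.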
